A study of Mus musculus with 12 samples.

Results

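The 46 genes described here are a listed set of S phase and mitosis genes, taken by symbol from the 22924 genes listed in lung or spleen RNA-seq of WT and β3-/- mice. Of these, 20 act mainly in S phase (origin licensing, the replication fork, nucleotide supply and their transcription factors) and 26 in mitosis. In β3-/- spleens 7 of the 26 mitosis genes, led by *Mki67*, *Ube2c* and *Nusap1*, and 1 S phase gene were called higher (8 of 46, beside 3.66% of all tested genes), a count that fell to 0 when any one of 4 spleen libraries was left out. The median log2 fold change was 0.95 for the mitosis genes and 0.43 for the S phase genes, 16 of 20 positive. Among the latter it was -0.01 for *Mcm2* to *Mcm7*, the subunits of the replicative helicase. In β3-/- lungs no member passed the test, where only 0.296% of all tested genes were called higher and 0.0315% lower. For no member did the genotype effect differ between the tissues past the threshold, beside 0.207% of all genes with a larger effect in spleen. Every member was called higher in spleen than in lung in both genotypes, beside 37.5% of all genes in WT and 32.4% in β3-/- mice. Both tissues were taken from the same animals, 3 of each genotype at an age of 8 to 10 weeks, with 1 library per mouse and tissue and 12 libraries in all. WT mice were purchased C57BL/6 mice. β3-/- mice carry a constitutive disruption of *Itgb3*, the integrin β3 subunit of platelets, megakaryocytes and other cells, on the C57BL/6 background, and were a gift from another laboratory. Sex and litter were not stated in the sources used here.

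Before S phase the MCM helicase is loaded at origins with Cdc6 and Cdt1, and at the start of S phase Cdc45 and the GINS complex convert it into the moving helicase. These genes and those of nucleotide synthesis are transcribed under E2F factors at the G1/S boundary. Mitotic genes are switched on later, in G2 and M, by the MuvB complex with B-Myb and FoxM1, acting at the CHR element and at CCAAT boxes bound by NF-Y. In spleen, dividing cells include activated B cells and plasmablasts and, in the red pulp of mice, erythroid precursors, while most cells of the adult lung are quiescent. In whole tissue, fewer cells of a type and less RNA per cell cannot be told apart.

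Levels are given as FPKM, a measure of fragments per length of transcript and per depth of library, as deposited. Genotype differences are log2 fold changes of FPKM plus 0.1 with the moderated standard error (SE) from limma-trend, which understate changes of genes near 0.1 FPKM, and a gene was called when its Benjamini-Hochberg adjusted p over all tested genes was below 0.05. The depth of the libraries is unknown because the files hold no counts. *Itgb3* had 8.50 to 10.6 FPKM in WT and 3.52 to 4.02 FPKM in β3-/- spleens, and 3.68 to 4.39 and 1.29 to 1.94 FPKM in WT and β3-/- lungs. The Y-linked *Ddx3y* was listed at 0 in every β3-/- library and had 16.9 to 25.2 FPKM in WT libraries, so that sex, source of the mice and genotype cannot be told apart in any comparison of genotypes. WT spleen library 2 carried pancreatic acinar transcripts, with a summed 2198 FPKM over 11 markers, β3-/- spleen library 2 had 228 FPKM, and the other spleen libraries had 18.2 to 26.9 FPKM.

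The promoters of members were compared first for the letters of these elements, since they are a feature of S phase and mitosis genes that does not use expression. RefSeq promoters of 300 bases (250 before and 50 after the start of transcription, GRCm38.p6) matched 38 members. They were not used for *Ccna2*, *Aurkb*, *Kif20a*, *Tpx2*, *Mcm4*, *Gins2*, *Foxm1* and *Ccne2*. Both strands were searched for TTTCGCGC or TTTGGCGC (E2F), for CCAAT and for TTTGAA (CHR). The E2F letters on opposite strands can overlap, as they do in *Mcm6* and *Mcm5*. A CHR together with a CCAAT box was found in 16 of 21 mitosis promoters (76.2%) and in 3 of 17 S phase promoters (17.6%), against 7.97% of 27025 genes. The E2F letters were found in 5 of 17 S phase promoters (29.4%), in 1 of 21 mitosis promoters (4.76%) and in 0.929% of all genes. A match describes the letters and not a bound site. The stretches below are shown because 3 belong to genes called in β3-/- spleen (*Ube2c*, *Mki67*, *E2f8*), 2 belong to helicase genes that were not (*Mcm6*, *Mcm5*), and *Cdk1* holds all 3 elements. They run 5′ to 3′ on the strand of the gene, with the matches of any of these motifs on either strand in capitals. On GRCm38.p6 they lie at chr2:164769829-164769928 on the plus strand (*Ube2c*), chr7:135716460-135716579 on the minus strand (*Mki67*), chr7:48881597-48881716 on the minus strand (*E2f8*), chr10:69352913-69353052 on the minus strand (*Cdk1*), chr1:128359736-128359825 on the minus strand (*Mcm6*) and chr8:75109349-75109448 on the plus strand (*Mcm5*).
Ube2c: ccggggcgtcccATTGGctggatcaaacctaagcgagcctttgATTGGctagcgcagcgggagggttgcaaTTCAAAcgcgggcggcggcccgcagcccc
Mki67: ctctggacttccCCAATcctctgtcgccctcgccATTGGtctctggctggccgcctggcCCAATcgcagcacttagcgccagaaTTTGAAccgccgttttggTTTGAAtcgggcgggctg
E2f8: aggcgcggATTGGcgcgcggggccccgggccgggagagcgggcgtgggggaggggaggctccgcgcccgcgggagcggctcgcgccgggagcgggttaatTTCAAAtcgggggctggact
Cdk1: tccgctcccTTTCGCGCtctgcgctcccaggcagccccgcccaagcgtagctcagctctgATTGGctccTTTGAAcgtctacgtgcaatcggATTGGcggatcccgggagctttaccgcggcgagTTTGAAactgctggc
Mcm6: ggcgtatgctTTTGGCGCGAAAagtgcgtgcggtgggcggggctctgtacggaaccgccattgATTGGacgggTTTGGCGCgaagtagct
Mcm5: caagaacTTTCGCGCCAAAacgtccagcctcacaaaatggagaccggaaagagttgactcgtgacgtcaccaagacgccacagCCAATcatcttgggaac

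*Ube2c*, *Mki67* and *E2f8* show 1 or more CCAAT boxes upstream of a CHR, whereas *Mcm6* and *Mcm5* show E2F letters and a CCAAT box but no CHR. This contrast holds for the stretches shown and not for all helicase genes. *Mcm2* had a CCAAT box and a CHR but no E2F letters, and its spleen log2 fold change was -0.12 (SE 0.29). Of the 8 members called in β3-/- spleen, 6 (*Mki67*, *Ube2c*, *E2f8*, *Prc1*, *Ccnb2* and *Aurka*) had both a CCAAT box and a CHR in this window, and *Birc5* and *Nusap1* had neither. Members that were not called also had both, with spleen log2 fold changes from -0.12 (*Mcm2*) to 1.23 (*Hmmr*, SE 0.33), and 0.01 (SE 0.20) for *Bub1b*. Within the mitosis members the median spleen log2 fold change was 0.98 for the 16 promoters with a CHR and 1.11 for the 5 without one.

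In WT mice the members were expressed in both tissues, and all 46 passed the filter (at least 0.1 FPKM in at least 3 libraries). Mean levels in WT lung ran from 0.208 FPKM (*Cenpf*, a kinetochore protein) to 57.8 FPKM (*Pcna*, the sliding clamp of DNA polymerases), with a median over members of 1.93 FPKM. In WT spleen they ran from 1.29 FPKM (*Cenpf*) to 125 FPKM (*Pcna*), with a median of 9.31 FPKM. In both tissues S phase members had the higher level per length. Their median was 4.16 FPKM in WT lung and 23.2 FPKM in WT spleen, against 1.31 and 8.86 FPKM for mitosis members.

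All 46 members were called higher in spleen than in lung in WT mice, where 37.5% of 16424 genes were called higher, and all 46 in β3-/- mice, where 32.4% were. The median log2 difference between the tissues was 2.23 in WT, from 0.74 (SE 0.25) for *E2f1*, the activating E2F factor of the G1/S boundary, to 3.53 (SE 0.35) for *Ccnb1*, a cyclin of Cdk1. In β3-/- mice it was 2.92, from 1.09 (SE 0.25) for *E2f1* to 4.61 (SE 0.32) for *Ube2c*, the ubiquitin-conjugating enzyme of the anaphase-promoting complex. The median over all genes was 0.08 in WT and -0.01 in β3-/- mice. Mitosis members stood further above lung than S phase members, with medians of 2.69 and 1.74 in WT. The count in WT fell to 44 when WT lung library 2 or WT spleen library 1 was left out.

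**Figure D1:**
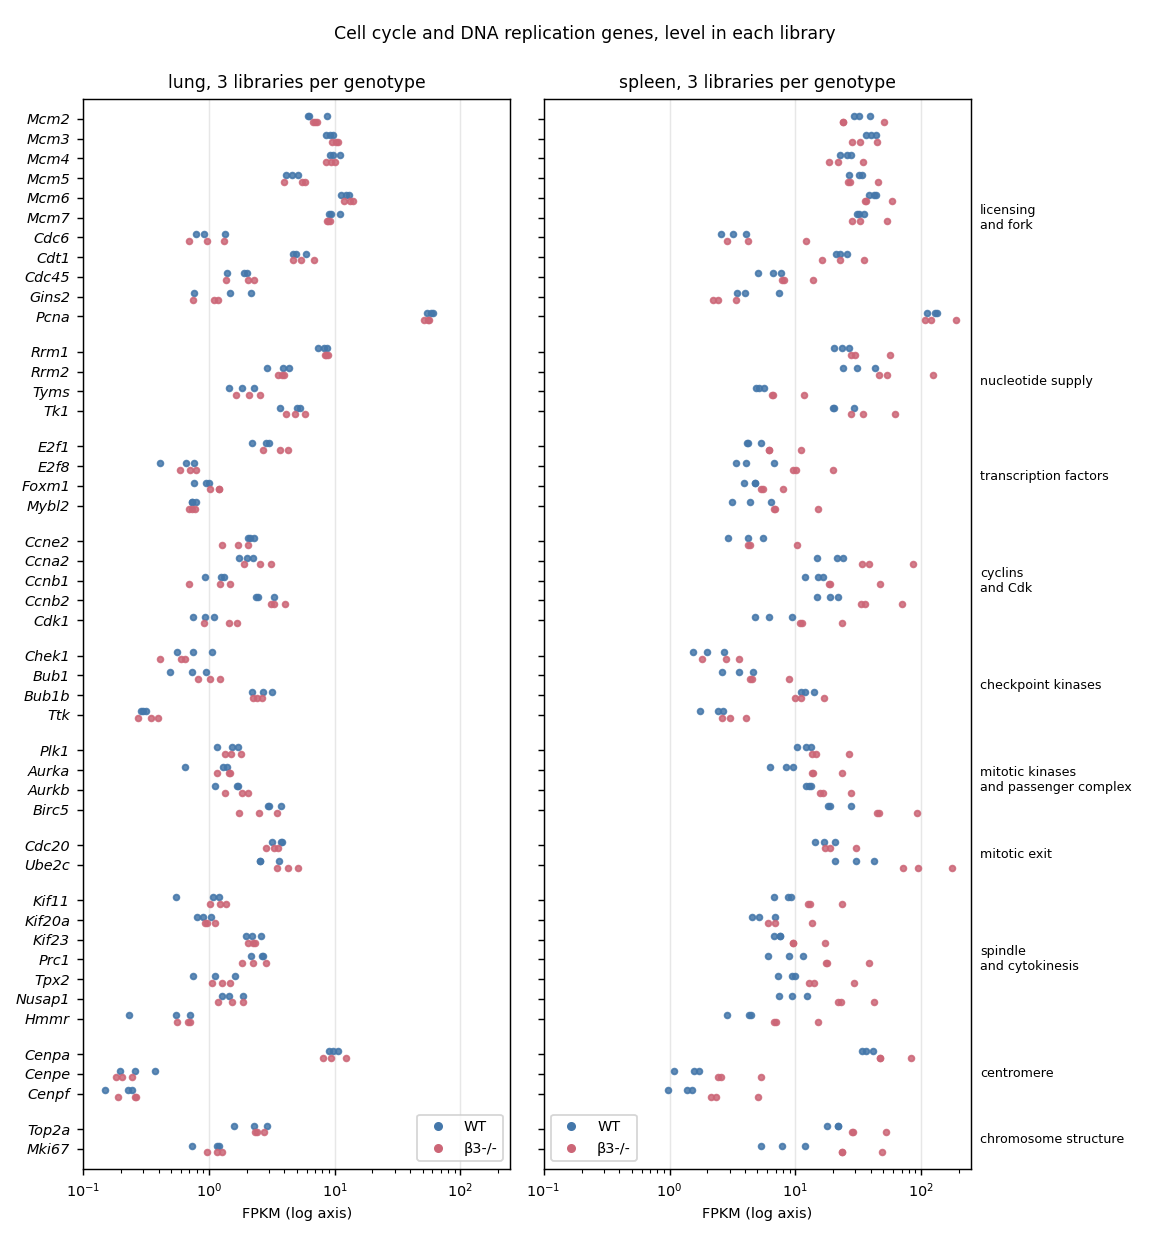
FPKM of each of the 46 genes (log axis) in the 3 WT and 3 β3-/- libraries of lung (left) and spleen (right), 1 point per library, grouped by role. Every gene sits further right in spleen, and in spleen the β3-/- points of *Mki67*, *Ube2c*, *Nusap1* and *Birc5* lie to the right of all WT points, whereas those of *Mcm2* to *Mcm7* lie on both sides of them.

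Whether the genotype changed these genes in spleen was asked with 3 WT against 3 β3-/- libraries. Of the 46 members, 8 (17.4%) were called higher, against 3.66% of 15480 genes, and 0 were called lower, against 5.39%. The 8 were *Mki67*, *Ube2c*, *Nusap1*, *E2f8*, *Birc5*, *Prc1*, *Ccnb2* and *Aurka*, and 7 of them are mitosis genes (7 of 26, beside 1 of 20 S phase genes). All are protein-coding, and on GRCm39, whose positions differ from those of the promoters above, they lie at chr7:135291513-135318299 (*Mki67*), chr2:164611768-164620742 (*Ube2c*), chr2:119448779-119481725 (*Nusap1*), chr7:48516176-48531452 (*E2f8*), chr11:117740040-117746581 (*Birc5*), chr7:79944168-79966011 (*Prc1*), chr9:70314966-70328874 (*Ccnb2*) and chr2:172198109-172212849 (*Aurka*). At an unadjusted p below 0.05, 26 members were higher, against 9.67% of all genes, and 1 (*Gins2*) was lower, against 26.3%. The log2 fold change was positive in 42 of 46 members, with a median of 0.67, while the median of all tested genes was -0.16. By phase the median was 0.95 for mitosis members, 26 of 26 positive, and 0.43 for S phase members, 16 of 20 positive. In 28 members every β3-/- spleen was above every WT spleen, against 11.4% of all genes, and in 1 every β3-/- spleen was below, against 32.0%. The calls depended on single libraries. Leaving out WT library 2, WT library 3, β3-/- library 1 or β3-/- library 3 left 0 members called by limma, leaving out WT library 1 left 4, and leaving out β3-/- library 2 gave 12. All genes called higher moved between 52 and 858 over the same 6 fits.

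**Figure D2:**
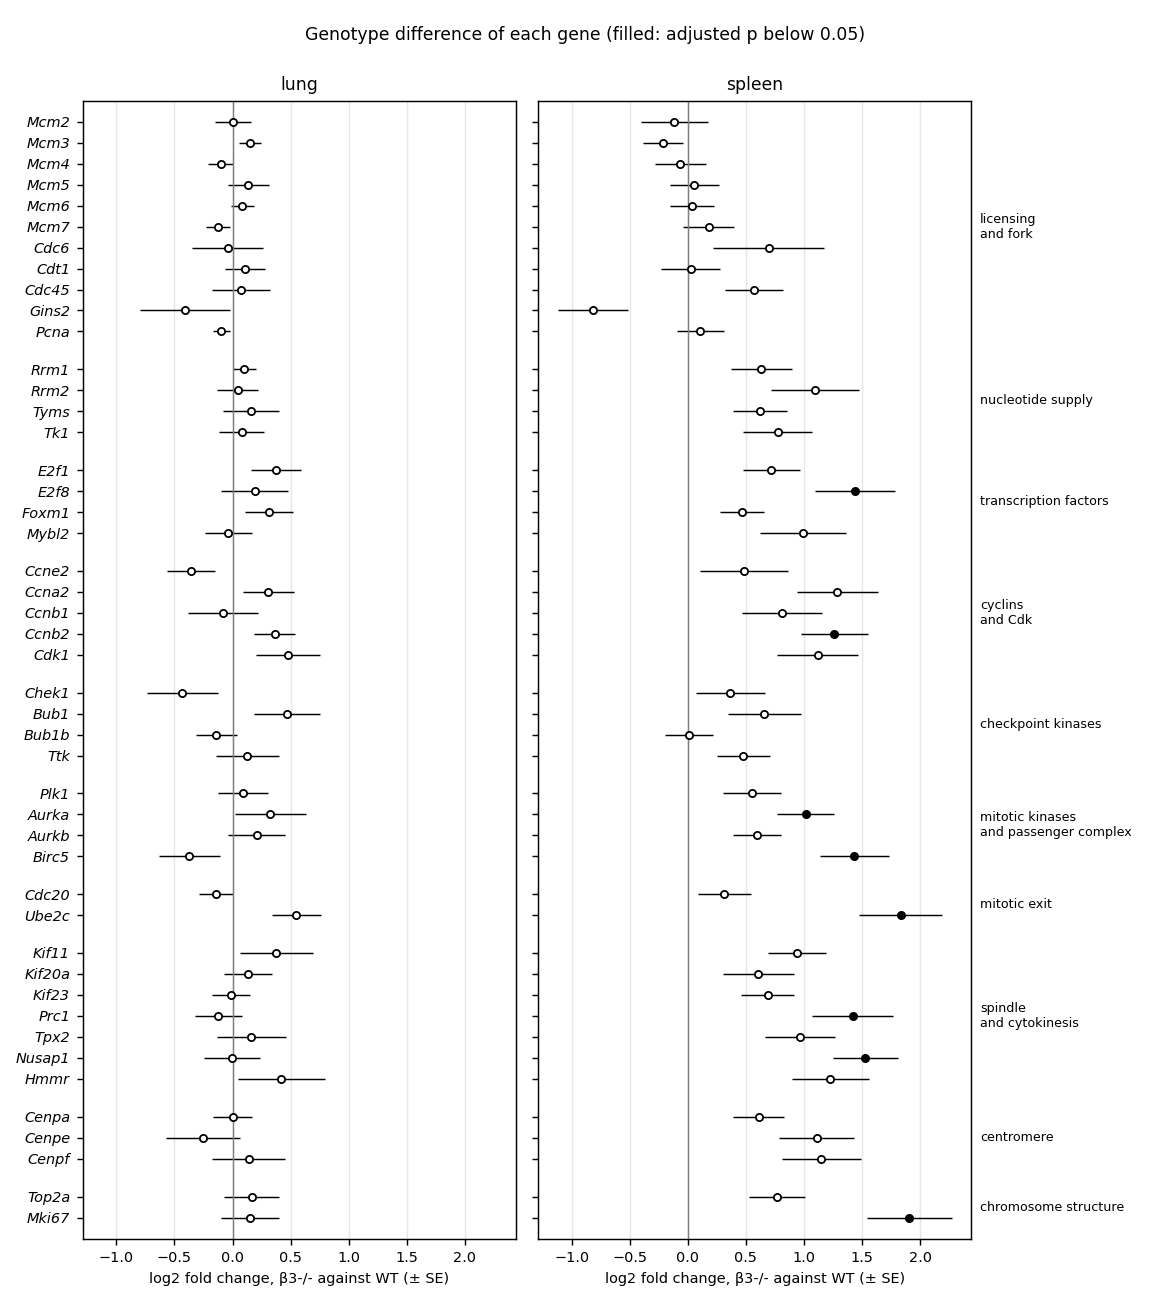
Log2 fold change of β3-/- against WT for each gene in lung (left) and spleen (right), with bars of ± 1 SE from limma-trend and filled points for an adjusted p below 0.05. In spleen 8 points are filled and 42 of 46 lie above 0, and in lung none is filled.

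*Mki67*, which encodes the Ki-67 protein that coats mitotic chromosomes, had 11.97, 7.81 and 5.30 FPKM in WT spleens 1, 2 and 3, and 48.6, 23.4 and 23.6 FPKM in β3-/- spleens 1, 2 and 3. All β3-/- spleens were above all WT spleens, library 1 being the highest of each genotype. Its log2 fold change was 1.91 (SE 0.36, limma adjusted p = 0.0343), the largest among members, and its mean rose 3.82-fold, from 8.36 ± 3.37 to 31.9 ± 14.5 FPKM (SD, n = 3). *Top2a*, the topoisomerase that untangles sister chromatids, had 21.9, 21.9 and 17.8 FPKM in WT and 52.1, 28.6 and 28.3 FPKM in β3-/- spleens. The groups did not overlap, but the change of 0.77 (SE 0.24) did not pass the test (adjusted p = 0.0725 from limma).

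Among genes of mitotic exit, *Ube2c* had 42.0, 30.3 and 20.5 FPKM in WT and 174, 72.2 and 94.5 FPKM in β3-/- spleens. The lowest β3-/- spleen was well above the highest WT spleen. The log2 fold change was 1.83 (SE 0.36, limma adjusted p = 0.0348). *Cdc20*, which activates the anaphase-promoting complex, had overlapping values, 14.4 to 20.7 FPKM in WT and 17.1 to 30.3 FPKM in β3-/- spleens, and a log2 fold change of 0.32 (SE 0.23).

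Of 7 spindle and cytokinesis genes, 2 were called higher. *Nusap1*, which bundles spindle microtubules, had 12.4, 9.33 and 7.41 FPKM in WT and 41.9, 21.7 and 23.2 FPKM in β3-/- spleens. The groups were apart, and the log2 fold change was 1.53 (SE 0.28, limma adjusted p = 0.0324, the lowest of the members). *Prc1*, which crosslinks the antiparallel microtubules of the central spindle, had 11.5, 8.94 and 6.06 FPKM in WT and 38.7, 17.6 and 17.9 FPKM in β3-/- spleens. The groups were again apart, and its log2 fold change was 1.42 (SE 0.35, limma adjusted p = 0.0479). The spindle motor *Kif11* (0.94, SE 0.25) and *Hmmr*, a spindle assembly factor (1.23, SE 0.33), missed the threshold narrowly, with adjusted p of 0.0548 and 0.055 from limma. *Tpx2*, *Kif23* and *Kif20a* had log2 fold changes of 0.97, 0.69 and 0.61, and among the 7 genes only *Kif20a* overlapped between genotypes.

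Of the mitotic kinases and the passenger complex, which corrects chromosome attachment, 2 of 4 were called higher. *Birc5*, the passenger subunit survivin, had 27.8, 18.1 and 18.9 FPKM in WT and 92.7, 44.4 and 46.1 FPKM in β3-/- spleens. The groups did not overlap, with a log2 fold change of 1.44 (SE 0.30, limma adjusted p = 0.0386). *Aurka*, the centrosomal Aurora kinase, had 9.61, 8.46 and 6.34 FPKM in WT and 23.4, 13.7 and 13.4 FPKM in β3-/- spleens. These were also apart, and its log2 fold change of 1.01 (SE 0.25, limma adjusted p = 0.0477) was the smallest of the 8 calls. *Aurkb*, the kinase of the passenger complex, and *Plk1*, the Polo kinase of mitotic entry, did not pass, with log2 differences of 0.60 (SE 0.21) and 0.55 (SE 0.25).

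Of 5 cyclins and their kinase, 1 was called higher. *Ccnb2*, a B-type cyclin, had 21.8, 18.8 and 14.8 FPKM in WT and 70.4, 33.1 and 36.0 FPKM in β3-/- spleens. No WT spleen reached a β3-/- spleen, and the log2 fold change was 1.26 (SE 0.29, limma adjusted p = 0.0445). *Ccna2*, the cyclin of S and G2, had the highest level of this group, with 23.9, 21.6 and 14.8 FPKM in WT and 85.7, 38.5 and 34.1 FPKM in β3-/- spleens. It was also apart between genotypes, with 1.29 (SE 0.35), but its adjusted p was 0.0569 from limma. *Cdk1*, the mitotic kinase itself (1.12, SE 0.35), and *Ccnb1* (0.81, SE 0.35) were not called. *Ccne2*, a cyclin of S phase entry, overlapped between genotypes (0.48, SE 0.38).

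The centromere genes were not called, although all 3 were higher in every β3-/- spleen. *Cenpa*, the histone variant that marks centromeres, had 41.1, 36.5 and 34.0 FPKM in WT and 82.3, 46.9 and 47.1 FPKM in β3-/- spleens, a log2 fold change of 0.61 (SE 0.22, limma adjusted p = 0.0965). The kinetochore genes *Cenpe* and *Cenpf* had 1.11 (SE 0.32) and 1.15 (SE 0.34). The checkpoint kinases overlapped in all 4 cases. *Bub1b*, a kinase-like subunit of the spindle checkpoint, had 11.96, 14.0 and 11.0 FPKM in WT and 16.9, 9.98 and 11.1 FPKM in β3-/- spleens. It thereby showed the smallest change of the mitosis genes, 0.01 (SE 0.20). The spindle checkpoint kinases *Bub1* and *Ttk* had 0.66 (SE 0.31) and 0.48 (SE 0.23), and *Chek1*, the replication checkpoint kinase, 0.37 (SE 0.29).

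Of 4 transcription factors, 1 was called higher and all 4 were apart between genotypes. *E2f8*, a repressive E2F factor expressed in S phase, had 6.73, 4.08 and 3.37 FPKM in WT and 20.0, 9.51 and 10.1 FPKM in β3-/- spleens. The log2 fold change was 1.44 (SE 0.34, limma adjusted p = 0.0468), and *E2f8* was the only S phase member called. *Mybl2*, which encodes B-Myb, had 0.99 (SE 0.37), *E2f1* had 0.72 (SE 0.25) and *Foxm1* had 0.47 (SE 0.19), none past the threshold. The 4 genes of nucleotide supply were positive, from 0.62 (SE 0.23) for *Tyms*, thymidylate synthase, to 1.09 (SE 0.38) for *Rrm2*, the regulated subunit of ribonucleotide reductase. *Rrm2* had 42.6, 30.9 and 23.8 FPKM in WT and 124, 53.2 and 46.2 FPKM in β3-/- spleens. Even its lowest β3-/- spleen was above all WT spleens, with an adjusted p of 0.0909 from limma. *Rrm1*, the other subunit, had 0.63 (SE 0.26) and *Tk1*, thymidine kinase, 0.77 (SE 0.30).

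Of the 11 licensing and fork genes none was called by limma, beside 3.66% of all genes called higher and 5.39% lower, and 1 (*Gins2*) had an unadjusted p below 0.05, being lower. The group's median log2 difference was 0.03. Whether they differed as a group from the mitosis genes was not tested. *Mcm2* had 31.9, 39.0 and 29.3 FPKM in WT and 50.2, 24.0 and 23.7 FPKM in β3-/- spleens. *Mcm6* had 42.2, 43.6 and 38.2 FPKM in WT and 58.2, 36.3 and 35.7 FPKM in β3-/- spleens. For both, β3-/- spleen 1 was the highest of the 6 libraries and the other β3-/- spleens were the lowest. The log2 fold changes of *Mcm2* to *Mcm7* ran from -0.22 (SE 0.17, *Mcm3*) to 0.18 (SE 0.22, *Mcm7*), 3 positive and 3 negative, with a median of -0.01, and all 6 overlapped between genotypes. *Pcna* had 133, 129 and 112 FPKM in WT and 188, 120 and 107 FPKM in β3-/- spleens, which overlapped (0.11, SE 0.20). *Cdt1* and *Cdc6*, the helicase loaders, had 0.03 (SE 0.25) and 0.70 (SE 0.48), and *Cdc45* had 0.57 (SE 0.25).

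*Gins2*, a subunit of the GINS complex, was the only member below WT in every β3-/- spleen. It had 4.02, 3.46 and 7.48 FPKM in WT and 3.38, 2.41 and 2.23 FPKM in β3-/- spleens, so that the groups were close, and its log2 fold change was -0.82 (SE 0.30, limma adjusted p = 0.104). Of its exonic bases, 67.3% are shared with *Gse1* on the opposite strand, and since the strand setting of the counting was not stated, reads of the 2 genes may not have been told apart. The same overlap with an opposite-strand gene covered 25.2% of the exonic bases of *Aurka* (*Fam210b* and *Cstf1*), 19.0% of *Ube2c* (*Tnnc2*), 11.8% of *Prc1* (*Rccd1*) and 4.01% of *Nusap1* (*Oip5*), and none of *Mki67*, *E2f8*, *Birc5* and *Ccnb2*. *Kif11*, *Hmmr*, *Mcm2*, *Mcm6*, *Pcna*, *Gins2*, *Bub1b* and the other members not called were described for their role or after their values were seen.

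Against the helicase genes of the same library, the mitosis genes stood higher in every β3-/- spleen than in any WT spleen. *Mcm2* to *Mcm7* are part of the licensing and fork genes and were not a role of their own. Members and lists were chosen with earlier results of these data known, so this separation is a description and not a test. The median log2 level of the 26 mitosis genes minus that of *Mcm2* to *Mcm7* was -1.51, -1.98 and -2.08 in WT spleens 1, 2 and 3, and -0.82, -1.07 and -0.97 in β3-/- spleens. The β3-/- values were all above the WT values. In lung the same difference was -2.54, -3.06 and -2.55 in WT and -2.37, -2.61 and -2.66 in β3-/- libraries, where the genotypes overlapped. Being a difference within a library, it does not depend on the scaling of the library. Taken against the median of all S phase members instead, the difference was -1.13, -1.21 and -1.51 in WT and -0.37, -0.65 and -0.34 in β3-/- spleens. The level itself rested in part on β3-/- spleen 1, where the mitosis genes summed to 1012 FPKM, against 496 and 519 FPKM in β3-/- spleens 2 and 3 and 249 to 354 FPKM in WT spleens. *Mcm2* to *Mcm7* summed to 287 FPKM in β3-/- spleen 1, 175 and 161 FPKM in β3-/- spleens 2 and 3, and 184 to 220 FPKM in WT spleens. Without β3-/- spleen 1 the median over the 46 members was 0.34 and that of mitosis members 0.62, 25 of 26 positive, while that of *Mcm2* to *Mcm7* was -0.26, none positive and none called.

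**Figure D3:**
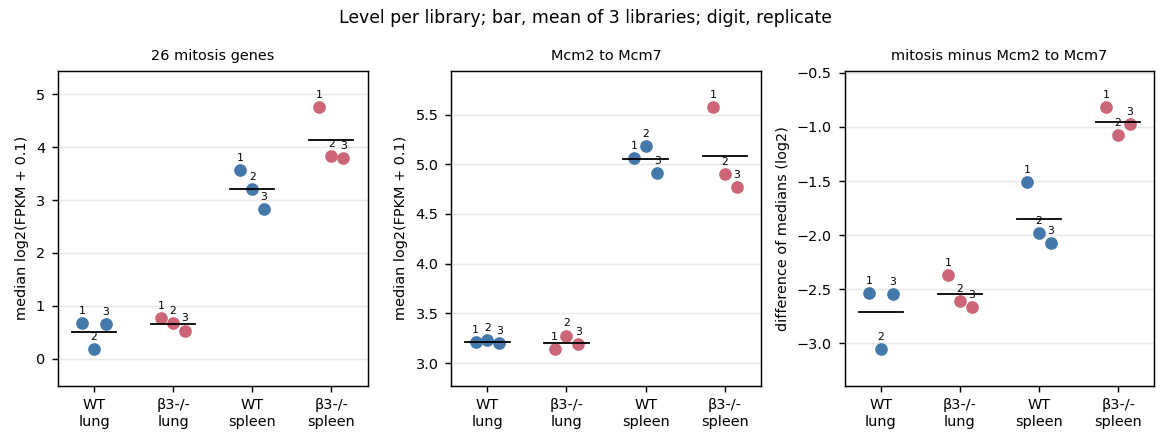
Median log2(FPKM + 0.1) of the 26 mitosis genes (left) and of *Mcm2* to *Mcm7* (middle), and their difference (right), with 1 point per library, the replicate number beside it and a bar at the mean of 3 libraries. In spleen the difference is -2.08 to -1.51 in WT and -1.07 to -0.82 in β3-/- libraries, and in lung the genotypes overlap.

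The sign of small changes depended on the scaling, which also moved the median of all genes. The median over all spleen genes was -0.16 as deposited, -0.36 after rescaling to TPM, -0.00 with median-of-ratios scaling and -0.10 after quantile normalization, and 40.5%, 11.95%, 73.0% and 47.2% of all called genes were then higher. Relative to that median, the members' median was 0.84, 0.84, 0.84 and 0.83. Of the 26 mitosis genes, 26, 25, 26 and 26 were positive under the 4 scalings, *Bub1b* being the exception under TPM. Of *Mcm2* to *Mcm7*, 3, 0, 5 and 4 were positive, while their median relative to that of all genes was 0.15, 0.14, 0.15 and 0.17.

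The summed markers of erythroid precursors and of some other blood cells were also higher in β3-/- than in WT spleens. The 15 markers of erythroid precursors summed to 528, 104 and 140 FPKM in WT spleens 1, 2 and 3, and to 3125, 1273 and 1631 FPKM in β3-/- spleens. Library 1 was the highest of each genotype for erythroid markers, for the mitosis genes and for *Mki67*, while among WT spleens library 2 was the lowest for erythroid markers and library 3 for the mitosis genes. Of the 15, 12 were called higher, against 3.66% of all genes, the median log2 fold change was 3.43, and none was at 0 in any spleen. *Klf1*, the erythroid transcription factor, had 15.3, 0.945 and 1.21 FPKM in WT and 62.0, 19.1 and 21.9 FPKM in β3-/- spleens, which did not overlap. Granulocyte progenitor markers summed to 10.3 to 27.8 FPKM in WT and 55.8 to 423 FPKM in β3-/- spleens, 3 of 5 called higher. Their highest sum was in β3-/- spleen 3, whereas that of the mitosis genes was in β3-/- spleen 1. Megakaryocyte and platelet markers summed to 118 to 185 and 305 to 1404 FPKM, also highest in β3-/- spleen 3, 2 of 6 called higher. Plasma cell markers summed to 976 to 1059 and 2760 to 2962 FPKM, 5 of 8 called higher, with *Jchain* alone at 667 to 771 and 2418 to 2628 FPKM. Of these markers *Irf4* was lower in every β3-/- spleen (24.5 to 27.3 and 14.1 to 21.8 FPKM, log2 fold change -0.52), and *Mzb1* had 154.1 to 183.9 and 150.5 to 154.8 FPKM.

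The sums of other lists overlapped between genotypes or fell. Germinal centre B cell markers summed to 34.0 to 38.3 FPKM in WT and 35.8 to 43.4 FPKM in β3-/- spleens. Of these 8, 0 were called higher by limma, against 3.66% of all genes, and 1 lower, against 5.39%. At an unadjusted p below 0.05, 2 were higher, against 9.67% of all genes, and the median log2 fold change was 0.49. Pro-B and pre-B markers fell, 3 of 5 tested being called lower, against 5.39% of all genes, with sums of 81.3 to 107 and 24.4 to 39.0 FPKM, and *Igll1*, the surrogate light chain gene, was listed at 0 in β3-/- spleens 2 and 3. B cell markers summed to 2144 to 2267 and 1148 to 1681 FPKM, 5 of 8 called lower. T cell markers summed to 301 to 415 and 222 to 314 FPKM, with 0 of 7 tested called in either direction by limma. At an unadjusted p below 0.05, 4 of the 7 were lower, against 26.3% of all genes. The part of each of these cell types in the levels of the 46 genes was not tested.

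**Figure D4:**
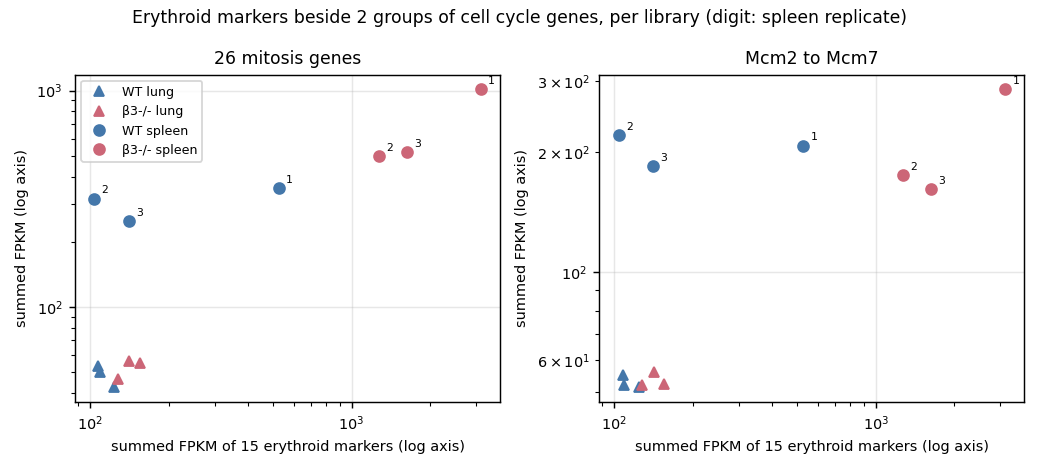
Summed FPKM of the 26 mitosis genes (left) and of *Mcm2* to *Mcm7* (right) against the summed FPKM of 15 erythroid markers (log axes), 1 point per library, circles for spleen with the replicate number and triangles for lung. Spleen libraries with 1273 to 3125 FPKM of erythroid markers, all β3-/-, have the 3 highest mitosis sums, whereas the *Mcm2* to *Mcm7* sums of β3-/- spleens 2 and 3 are the lowest of the 6 spleens.

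In lung no member was called by limma in either direction, where 0.296% of 15869 genes were called higher and 0.0315% lower. With no adjustment, 1 member was higher at a p below 0.05, against 4.95% of all genes, and 0 were lower, against 7.70%. That member was *Ube2c*, with 2.54, 2.55 and 3.65 FPKM in WT lungs 1, 2 and 3 and 5.17, 4.27 and 3.46 FPKM in β3-/- lungs. The lowest β3-/- lung was below the highest WT lung, and the log2 fold change was 0.55 (SE 0.21, limma adjusted p = 0.365). *Foxm1*, which encodes the factor FoxM1 of G2 and M, was the only member without overlap, against 6.86% of all genes with every β3-/- lung above WT and 12.6% with every one below. It had 1.01, 0.768 and 0.947 FPKM in WT and 1.22, 1.20 and 1.03 FPKM in β3-/- lungs, so that the nearest libraries almost met, and a log2 fold change of 0.31 (SE 0.20, limma adjusted p = 0.593).

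The log2 fold changes in lung ran from -0.43 (*Chek1*) to 0.55 (*Ube2c*), with a median of 0.09, 30 of 46 positive, and all tested genes had a median of -0.02. With each library left out the members' median ran from -0.05 (without WT lung 2, 20 of 46 positive) to 0.16 (without WT lung 3 or β3-/- lung 3), and it was 0.03 without β3-/- lung 2. By phase the median was 0.06 for S phase and 0.14 for mitosis members. *Mki67* had 1.21, 0.731 and 1.16 FPKM in WT and 1.27, 1.17 and 0.978 FPKM in β3-/- lungs, which overlapped (0.15, SE 0.25). The SE of members in lung had a median of 0.21 and ran from 0.07 to 0.39. The lung libraries also differed in *Ubb*, a ubiquitin gene, with 4.52 to 4.97 FPKM in WT lung 3 and β3-/- lungs 1 and 2 and 570 to 688 FPKM in the others. With this library group as a term the members' median was 0.02, and again 0 were called. Erythroid markers summed to 108 to 124 FPKM in WT and 128 to 155 FPKM in β3-/- lungs. Of 11 tested, 1 (*Alas2*, the first enzyme of erythroid haem synthesis, 1.43, SE 0.17, adjusted p = 0.0319 from limma) was called higher, and *Klf1* was listed at 0 in WT lungs 1 and 2 and β3-/- lungs 1 and 3.

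Whether the genotype effect differed between the tissues was tested as an interaction in all 12 libraries. No member was called by limma, against 0.207% of 16424 genes with a larger effect in spleen and 0.201% with a smaller one. At an unadjusted p below 0.05, 12 members were higher in this difference, against 6.27% of all genes, and 0 were lower, against 12.7%. The difference of the log2 fold changes was positive in 40 of 46 members, 26 of 26 among mitosis members, with a median of 0.61, and -0.12 over all genes. Without β3-/- spleen 1 the median was 0.28, with 35 of 46 members and 23 of 26 mitosis members positive. It was largest for *Birc5* (1.81, SE 0.43, adjusted p = 0.0753 from limma), whose log2 fold change was 1.44 in spleen and -0.37 in lung. *Mki67* (1.76, SE 0.47), *Prc1* (1.54, SE 0.44) and *Nusap1* (1.53, SE 0.39) followed, with adjusted p of 0.0988, 0.112 and 0.085. For no single member was a difference of the genotype effect between tissues past the threshold.

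The rest of the cell cycle was described with a list of 143 other genes. In spleen 6 of these were called higher (4.20%, near the 3.66% of all genes) and 2 lower, against 5.39% of all genes. An unadjusted p below 0.05 was reached by 47 upward, against 9.67% of all genes, and 8 downward, against 26.3%, and the median log2 fold change was 0.34, with 105 positive. The 6 were *Cit*, the citron kinase of cytokinesis (1.83, SE 0.34, adjusted p = 0.0324 from limma), *E2f2*, an activating E2F factor (1.46, SE 0.29), *Ect2*, a cytokinesis gene (1.31, SE 0.32), the spindle protein *Ckap2l* (1.27, SE 0.27), the chromokinesin *Kif4* (1.20, SE 0.29) and *Fzr1*, the Cdh1 activator of the anaphase-promoting complex (1.16, SE 0.23). The 2 called lower were *Pold1*, the catalytic subunit of DNA polymerase δ (-0.54, SE 0.12, adjusted p = 0.0445 from limma), and *E2f5*, a repressive E2F factor (-0.44, SE 0.11, adjusted p = 0.0483 from limma). In lung 0 of the 143 were called by limma, beside 0.296% of all genes called higher and 0.0315% lower. There an unadjusted p below 0.05 was reached by 4 upward, against 4.95% of all genes, and 5 downward, against 7.70%. Their median in lung was -0.04.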

How the data were processed

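RNA of lung and spleen from the same 3 WT and 3 β3-/- mice was measured in 12 libraries. Per the methods and labels, the authors used Trimmomatic to trim reads, HISAT2 for alignment on GRCm39 and featureCounts for gene counts. The tool that made the FPKM the authors deposited, and its gene lengths, were not given in the sources used here. The labels name a Qiagen RNeasy and a SMARTER kit, whereas the methods name TRIzol. The smallest value above 0 was 1e-06, so counts could not be recovered and DESeq2, which the authors used, was not run. Genes with at least 0.1 FPKM in at least 3 libraries of a fit were tested on log2(FPKM + 0.1) with limma-trend (limma 3.58.1, R 4.3.3) without covariates, on 6 libraries per tissue for genotype and on all 12 for tissue and interaction. Adjusted p are Benjamini-Hochberg values over all genes tested. The scripts were tested on simulated data. Promoters are RefSeq sequences, and gene overlaps come from GENCODE vM39 on GRCm39. Members and lists were chosen with earlier results of these data known. Values in every library were given for called members, for the highest member of each role and for others named as such. With 3 against 3 an exact permutation test of 1 gene cannot give a two-sided p below 0.1. WT and β3-/- libraries share replicate numbers, but same-numbered libraries did not deviate together in every pair, so replicate number was used as a block only as an alternative. Lung and spleen of a mouse are paired by design. The remaining alternatives changed the pseudocount (1 or 0.01), the filter (none, or 1 FPKM) or the scaling (TPM, median-of-ratios, quantile), or used limma without trend, sample weights, 1 fit of all libraries, *Ubb* as a term in lung, libraries with pancreas transcripts left out (the 5-fold limit was added after seeing the data) and each library left out.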

Additional observations from a re-analysis of the deposited data

How the results depend on the processing

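The count of members called higher in β3-/- spleen was the value that depended most on processing. Shares of all tested genes called higher are given in brackets. Against 8 (3.66%), it was 5 with a pseudocount of 1 (3.33%) and 4 with median-of-ratios scaling (3.31%). It was 0 with no filter (0.936% of 18279 genes) and 0 by limma without trend (0.743%). The count was 16 with sample weights (4.90%), 17 with all 12 libraries in one fit (5.50%) and 21 with replicate number as a block (5.08%). It was 0 without WT spleen 2 (pancreas transcripts over 10 times the median), where 0.392% of all genes were called higher. Without WT and β3-/- spleens 2 (over 5 times, chosen after seeing the data) it was 0, beside 0.298%. With each library left out it was 0 to 12, beside 0.340% to 5.60%. The median log2 fold change stayed positive, 0.34 to 0.83 with each library left out, while the lung median changed sign (-0.05 to 0.16). After rescaling to TPM 1 member, *Gins2*, was called lower (-1.03). The pairing check gave correlations of 0.20, 0.03 and -0.04 in lung and 0.18, 0.27 and 0.08 in spleen. The spleen values were all positive, and what same-numbered libraries share, beyond the number, was not stated in the sources used here. With the block 0 members were called in lung, as without it, while all genes called higher there fell from 47 to 16. With the mouse as a block, 46, 46 and 0 members were called for tissue in WT, tissue in β3-/- mice and interaction, as without it. The interaction called 3 members with sample weights, where 1.49% of all genes were called higher, against 0.207% in the main fit. It called 0 to 2 with each library left out (2 without β3-/- spleen 2, beside 1.78% of all genes). The median spleen-lung difference moved to 1.81 in WT and 2.31 in β3-/- mice with a pseudocount of 1. Single changes near 0 in spleen turned sign. *Mcm2* became 0.051 with median-of-ratios scaling, 0.0010 without WT spleen 2 and 0.17 without both libraries with pancreas transcripts (range with each library left out -0.47 to 0.067). *Mcm6* became -0.17 (range -0.20 to 0.15), *Pcna* -0.10 (range -0.14 to 0.27) and *Bub1b* -0.19 (range -0.215 to 0.16) under TPM. Precision rests on 3 mice per genotype.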

Other observations

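Cyclins, kinases, inhibitors and other regulators on the list of 143 were described after their values were seen, and none of those given here with a value was called in either tissue. In spleen the D cyclins, partners of Cdk4 and Cdk6 in G1, had log2 fold changes of -0.38 (*Ccnd1*, SE 0.15), -0.18 (*Ccnd2*, SE 0.13) and 0.08 (*Ccnd3*, SE 0.16), and *Cdk4* had -0.27 (SE 0.09, adjusted p = 0.077 from limma). *Cdkn1a*, which encodes the Cdk inhibitor p21, had 0.67 (SE 0.20, adjusted p = 0.0684) in spleen and 0.59 (SE 0.11, adjusted p = 0.121) in lung. The inhibitors *Cdkn2c*, *Cdkn2d* and *Cdkn1b* had 0.54, 0.59 and 0.30 in spleen, and *Cdkn2b* had -0.51. Of the pocket proteins that hold E2F factors in check, *Rb1* had 0.52 (SE 0.17, adjusted p = 0.0766), *Rbl1* -0.06 and *Rbl2* -0.17 in spleen. Beside *E2f1* and *E2f2*, the factor *E2f3* had 0.04 (SE 0.16) and *E2f7*, like *E2f8* a repressive factor, 0.14 (SE 0.29) in spleen.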
